A study of Rattus norvegicus with 48 samples.

Results

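Senicapoc blocks the potassium channel encoded by Kcnn4, and 9 potassium channel genes of the 30211 genes listed for each library are described here. They were picked out of the table by symbol: Kcnn4, its relatives Kcnn1, Kcnn2 and Kcnn3, the other calcium-activated channel Kcnma1, and Kcna3, Kcnj2, Kcnk6 and Kcnk13. Of the 9 genes, 8 passed the minimum of 0.5 CPM in at least 3 libraries and were tested. Kcnk6 was listed at 0 in all but 2 libraries and was not tested. In these cultures Kcnn4 RNA was higher with HIV Tat, with or without senicapoc, and no difference of Kcnn4 RNA between cultures with and without senicapoc passed the test.

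The channel of Kcnn4 opens when calcium binds calmodulin held on its inner side. Potassium then leaves the cell, the membrane becomes more negative inside, and calcium keeps flowing in through store-operated channels. In the brain this channel is best known from microglia, the resident macrophages, and outside it from red cells and T cells. The small-conductance channels Kcnn1, Kcnn2 and Kcnn3 are opened by calmodulin in the same way and damp repetitive firing of neurons. Kcnma1 forms the large-conductance channel, which needs both calcium and voltage, Kcna3 a voltage-gated channel of microglia and lymphocytes, and Kcnj2 an inward rectifier that holds the resting potential. Kcnk6 and Kcnk13 encode 2-pore channels that leak potassium, and both are studied as routes of the potassium loss that activates the NLRP3 inflammasome. A blocker acts on the channel protein, whereas the libraries measured RNA, so block of the channel itself was not measured.

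The 48 libraries came from mixed primary cultures of brain tissue from Sprague-Dawley rat fetuses of day 18, used after 21 days in vitro, with 3 libraries in each of 16 groups. Control cultures received none of these agents (the sources name both a vehicle control and untreated cultures), Tat cultures the viral Tat protein at 6 ng/mL for 48 h, Cocaine cultures 25 µM cocaine for 24 h, and Tat-Cocaine cultures both. Each of 4 compounds was given by itself, together with Tat, and together with both agents: senicapoc at 1 µM, amlexanox at 25 µM, tazemetostat at 3 µM and the itaconate ester 4OI at 250 µM. The experiment was run in triplicate, but the labels do not say whether the 3 libraries of a group came from separate animals or preparations, so the tests measure the spread between these libraries, which may be technical. No group received cocaine and a compound without Tat.

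Depth was 17.5 to 29.1 M reads on genes per library (median 22.4 M), which gave Kcnn4 between 17 and 144 reads in a library, and 0.5 CPM stood for 8.58 to 15 reads. Values are CPM scaled by TMM, and their number of reads sets how finely low genes can be read. The labels call the cells neurons. All 9 neuronal markers examined were present in each library (summed over the list, group means of 1223 to 4145 CPM), and so were all 14 microglial markers (1328 to 5765 CPM) and the astrocyte markers, so the libraries are of mixed cultures. The T cell markers Cd3e, Cd3d, Cd3g and Cd2 summed to at most 0.248 CPM in any library. Red cell markers (Hba-a1, Hba-a2, Hbb, Alas2 and Slc4a1) summed to at most 3.45 CPM. Their group mean was 0.776 CPM in Control and 2.34 CPM with Tat, and their part in the results was not tested. In RNA from a whole culture, fewer cells of a type and less RNA per cell cannot be told apart.

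Kcnn4 was low in untreated cultures, at 1.15, 1.91 and 1.5 CPM in the 3 Control libraries. With senicapoc alone it stood at 1.00, 1.78 and 1.13 CPM, which overlaps Control. With Tat it stood at 4.56, 6.30 and 6.33 CPM, and each Tat library was above each Control library. Tat-Cocaine libraries held 6.13, 3.27 and 4.75 CPM, Tat-Senicapoc libraries 4.17, 4.34 and 3.78 CPM, and Tat-Cocaine-Senicapoc libraries 4.67, 5.97 and 5.08 CPM. All libraries of these 4 groups with Tat lay above every Control and every Senicapoc library. Cocaine alone gave the widest spread among these groups, with 1.32, 3.44 and 4.26 CPM.

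Over all 16 groups the mean of Kcnn4 ran from 1.02 ± 0.51 CPM with 4OI alone to 5.73 ± 1.01 CPM with Tat (SD, n = 3), a ratio of 5.63. The groups next to each other in that order overlapped in 15 of 15 neighbouring pairs, so the order of neighbouring groups is not settled. The same held for Kcnn1, Kcnn2, Kcna3, Kcnj2 and Kcnk13, while 14 of 15 neighbouring pairs overlapped for Kcnn3 and Kcnma1. The ratio of the highest to the lowest group mean was 4.12 for Kcnn2, 4.03 for Kcnma1, 3.47 for Kcnn3, 3.16 for Kcnn1, 3.13 for Kcnj2, 2.21 for Kcnk13 and 1.72 for Kcna3.

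**Figure D1:**
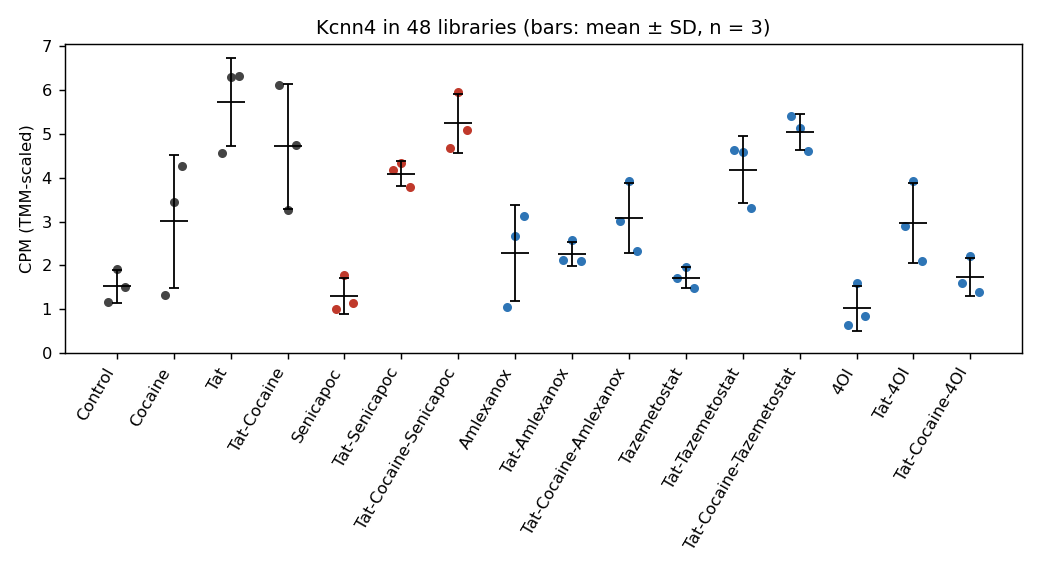
Kcnn4 in each library (points, TMM-scaled CPM on the vertical axis) in the 16 groups on the horizontal axis, with senicapoc groups in red, other compounds in blue and groups without a compound in grey; bars give mean ± SD (n = 3). Control, Senicapoc and 4OI libraries lie below 2 CPM, and Tat, Tat-Senicapoc and Tat-Cocaine-Senicapoc libraries lie above 3.5 CPM.

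The comparison with senicapoc asked whether RNA of the blocked channel, or of related channels, moved when the blocker was present. Kcnn4 differed by a log2 fold change of -0.17 between Senicapoc and Control (SE 0.29, 95% interval -0.75 to 0.41, FDR 0.857), by -0.43 between Tat-Senicapoc and Tat (interval -1.01 to 0.16, FDR 0.423) and by 0.17 between Tat-Cocaine-Senicapoc and Tat-Cocaine (interval -0.42 to 0.75, FDR 0.795). The Tat-Senicapoc libraries all lay below the Tat libraries, at most 4.34 CPM against at least 4.56 CPM, while the groups overlapped in the other comparisons. Over the 3 backgrounds together, 9 libraries against 9, the difference was -0.14 (SE 0.17, interval -0.48 to 0.19, FDR 0.670). True log2 changes of Kcnn4 RNA as large as the ends of that interval are not excluded here. With 3 libraries against 3, an exact permutation test of a single gene cannot go below p = 0.1, so the tests rest on the spread of each gene pooled over all 48 libraries, which limma moderates across genes.

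In the main fit none of the 8 tested genes was called in any of the 4 senicapoc comparisons. The threshold was an FDR under 0.05 in limma over 15890 genes, and it was passed by 0% of all genes for Senicapoc against Control, 0.409% for Tat-Senicapoc against Tat, 0.0441% for Tat-Cocaine-Senicapoc against Tat-Cocaine and 1.16% over the 3 backgrounds. At an unadjusted p under 0.05 the counts were 0, 2, 4 and 4 of the 8 genes, against 8.67%, 18.3%, 15.5% and 17.9% of all genes. A block for replicate number, a pairing that the labels do not name, was added to the fit as an alternative. It gave calls of Kcnn2 in Tat-Senicapoc against Tat (FDR 0.03) and of Kcnn1 in Tat-Cocaine-Senicapoc against Tat-Cocaine (FDR 0.0476). The share of all genes called with the block was not counted. In the contrast of senicapoc's effect with Tat, or with Tat and cocaine, against its effect in untreated cultures, 0 of 8 genes and 0 of 15890 genes were called, with 4.8% and 14.5% of all genes at an unadjusted p under 0.05.

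The largest of these uncalled differences stood with the neuronal channels in cultures given Tat. Kcnn2, a small-conductance channel of neurons, held 6.44, 2.02 and 5.37 CPM with Tat and 8.11, 7.33 and 9.32 CPM with Tat and senicapoc, a log2 difference of 0.90 (SE 0.32, FDR 0.157). Kcnma1, the large-conductance channel, held 19.1, 12.4 and 21.5 CPM with Tat and 38.7, 30.6 and 28.2 CPM with Tat and senicapoc, a difference of 0.89 (SE 0.33, FDR 0.171). In both genes the groups did not overlap, which was true of 3 of the 8 tested genes and of 25.7% of all genes in this comparison. The summed neuronal markers moved with them, from 1426 to 2720 CPM in Tat libraries to 3455 to 4230 CPM in Tat-Senicapoc libraries, with 0 of 9 markers called, and their part in the result was not tested.

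In cultures with Tat and cocaine the differences with senicapoc fell on other genes. Kcnn1 was at 13.2, 11.7 and 9.66 CPM in Tat-Cocaine libraries and at 7.18, 6.18 and 6.68 CPM in Tat-Cocaine-Senicapoc libraries (log2 difference -0.74, SE 0.18, FDR 0.115). Kcnj2, the inward rectifier, was at 8.51, 6.92 and 12.8 CPM without and at 14.9, 16.3 and 14 CPM with senicapoc (0.69, SE 0.23, FDR 0.182). Kcnk13, the leak channel of microglia, was at 4.6, 2.29 and 4.79 CPM without and at 6.62, 6.68 and 6.50 CPM with senicapoc (0.75, SE 0.23, FDR 0.174). Without the Tat-Cocaine replicate 3 library these 3 genes passed the threshold, with differences of -0.85 for Kcnn1 (FDR 0.0143), 0.93 for Kcnj2 (FDR 0.0248) and 0.91 for Kcnk13 (FDR 0.0320). The share of all genes called in that fit was not counted. Leaving out any of the other 5 libraries gave no call among these 3 genes. The libraries did not overlap in 4 of the 8 tested genes in this comparison, against 19.4% of all genes. The summed microglial markers ranged from 2085 to 3456 CPM in Tat-Cocaine libraries and from 3503 to 4584 CPM in Tat-Cocaine-Senicapoc libraries, and their part in the result was not tested. Kcnn3 and Kcna3 differed by at most 0.30 in size in any senicapoc comparison.

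**Figure D2:**
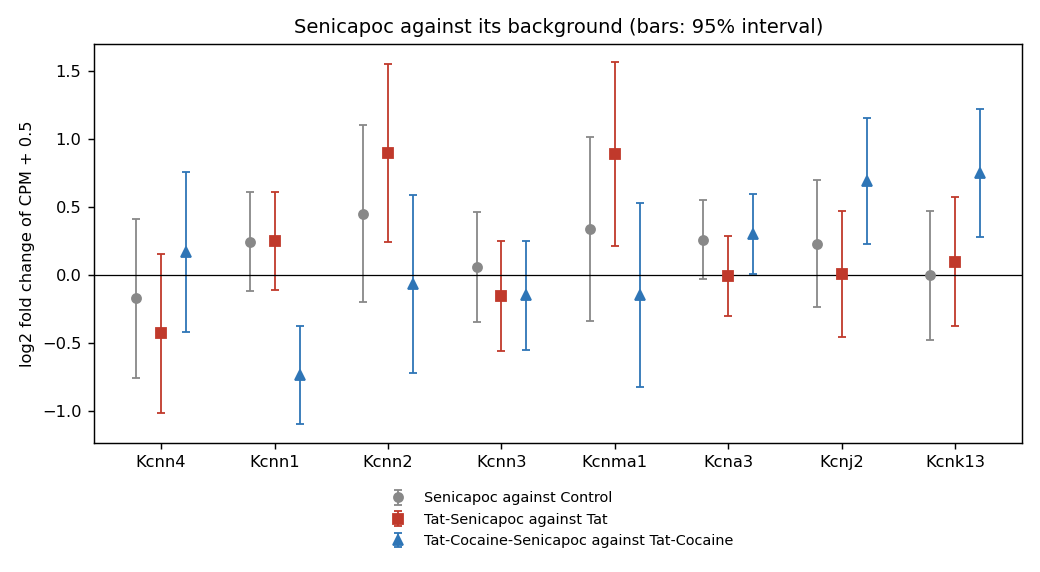
Log2 fold change of CPM + 0.5 (vertical axis) of the 8 tested genes (horizontal axis) in Senicapoc against Control (grey circles), Tat-Senicapoc against Tat (red squares) and Tat-Cocaine-Senicapoc against Tat-Cocaine (blue triangles); bars are 95% intervals. Kcnn4 lies at -0.17, -0.43 and 0.17 with intervals across 0, and Kcnn1 stands at -0.74 with Tat and cocaine.

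Tat raised 3 of the 8 tested genes, Kcnn4, Kcnj2 and Kcnn3, and lowered Kcnn2. This is 4 of 8 genes, against 21.3% of all 15890 genes called in Tat against Control (14.6% higher and 6.7% lower). Kcnn4 rose from 1.52 ± 0.38 to 5.73 ± 1.01 CPM (SD, n = 3), a log2 fold change of 1.63 (SE 0.29, FDR 7.81e-05). Kcnj2 stood at 5.06, 4.85 and 4.54 CPM in Control and at 15.6, 18.2 and 11.3 CPM in Tat libraries, a log2 fold change of 1.52 (SE 0.23, FDR 7.68e-06). Kcnn3 stood at 7.75, 9.61 and 9.26 CPM in Control and at 20.1, 24.6 and 18.1 CPM in Tat libraries, a log2 fold change of 1.19 (SE 0.20, FDR 3.57e-05). In all 3 genes each Tat library was above each Control library, though the share of all genes without overlap is not given for this comparison. The calls held in 10 of 10 alternative settings and without each of the 6 libraries in turn. Markers of several cell types moved in the same comparison. Of 14 microglial markers 3 were called higher and 1 lower (median 0.56, summed to 2019 to 3703 CPM in Control and 2565 to 4641 CPM with Tat), 4 of 8 astrocyte markers were lower (median -0.42), and 4 of 5 markers of border macrophages were lower (median -2.02). Their part in these rises was not tested.

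Kcnn2 was the gene that fell with Tat, from 9.32, 6.55 and 9.46 CPM in Control to 6.44, 2.02 and 5.37 CPM, a log2 fold change of -0.92 (SE 0.32, FDR 0.0383). Tat replicate 2 was the lowest of all 48 libraries for this gene. Without it the difference was -0.47 (FDR 0.4), and the call was also lost without Control replicate 1 (-0.84, FDR 0.131) or Control replicate 3 (-0.83, FDR 0.101). It held in 7 of 10 alternative settings and was lost with no filter (FDR 0.0589), in the fit to the 21 libraries without the other compounds (FDR 0.0837) and with the compared groups alone (FDR 0.186). The summed neuronal markers ran from 2674 to 4239 CPM in Control and from 1426 to 2720 CPM with Tat, with 0 of 9 called and a median of -0.58, and their part in the result was not tested. Kcnn1, Kcnma1, Kcna3 and Kcnk13 were not called, with differences of -0.23 (FDR 0.352), -0.47 (FDR 0.311), 0.35 (FDR 0.0749) and 0.08 (FDR 0.834). Kcna3, at 9.68, 10.6 and 10.1 CPM in Control and 15.5, 14.5 and 9.95 CPM with Tat, passed the threshold without Tat replicate 3 (0.54, FDR 0.00682).

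The same 3 genes were higher in Tat-Cocaine than in Control, where 8.63% of all genes were higher and 14.9% were called in all. The log2 fold changes were 1.35 for Kcnn4 (SE 0.29, FDR 0.00120), 0.90 for Kcnn3 (SE 0.20, FDR 0.00170) and 0.86 for Kcnj2 (SE 0.23, FDR 0.00914). The call of Kcnj2 was lost without Tat-Cocaine replicate 3, the highest of its group at 12.8 CPM (0.62, FDR 0.102). Since both comparisons use the Control libraries, they are not independent of each other.

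Tat-Senicapoc against Senicapoc shares no library with those comparisons, and there 10.8% of all genes were higher and 16% were called in all. Kcnn4 was higher by 1.37 (SE 0.29, FDR 0.00121), Kcnj2 by 1.3 (SE 0.23, FDR 0.000156) and Kcnn3 by 0.98 (SE 0.20, FDR 0.000813), and for each of them the 3 libraries with Tat lay above the 3 without. These calls held in 10 of 10 alternative settings and without each library in turn. In this comparison 4 of 14 microglial markers were called higher (median 0.99, summed to 1402 to 2620 CPM without and 2750 to 4165 CPM with Tat), and their part in the result was not tested. Kcnn2, at 12.3, 9.43 and 13.3 CPM with senicapoc and 8.11, 7.33 and 9.32 CPM with Tat and senicapoc, differed by -0.47 (FDR 0.350). The difference between the effect of Tat with and without senicapoc was not called for any of the 8 genes (for Kcnn4 -0.26, 95% interval -1.08 to 0.57).

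**Figure D3:**
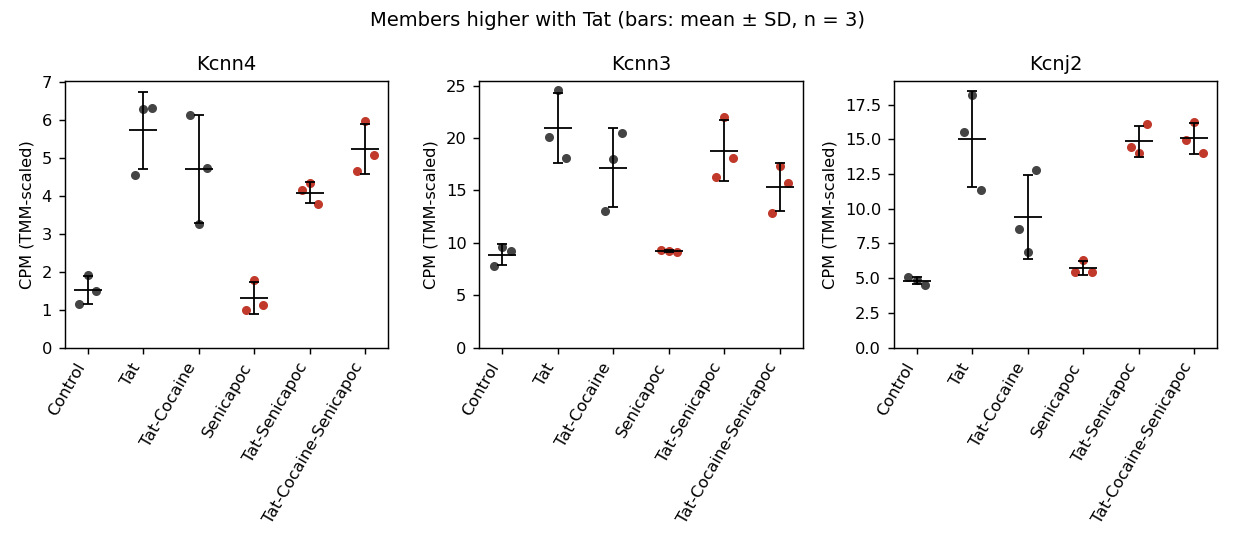
Kcnn4, Kcnn3 and Kcnj2 in each library (points, TMM-scaled CPM on the vertical axis of each panel) in groups without a compound (grey) and with senicapoc (red); bars give mean ± SD (n = 3). In all panels the Tat and Tat-Senicapoc libraries lie above the Control and Senicapoc libraries, from 1.52 to 5.73 CPM in the means of Kcnn4 between Control and Tat.

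Promoters of 2 of the 3 genes raised by Tat were at hand in RefSeq on the GRCr8 build, and they are printed because these genes rose together. A promoter was found for 6 of the 9 genes, and none for Kcnn4, Kcnn1 and Kcnk6. Each runs from 250 bases before to 50 bases after the annotated start. Capitals mark matches on either strand to GAGGAA (the core bound by the myeloid factor PU.1), TGANTCA (AP-1), CCAAT and GGGCGG (a GC box), none of which overlap in these sequences.
Kcnj2, chr10:96559975-96560274, + strand: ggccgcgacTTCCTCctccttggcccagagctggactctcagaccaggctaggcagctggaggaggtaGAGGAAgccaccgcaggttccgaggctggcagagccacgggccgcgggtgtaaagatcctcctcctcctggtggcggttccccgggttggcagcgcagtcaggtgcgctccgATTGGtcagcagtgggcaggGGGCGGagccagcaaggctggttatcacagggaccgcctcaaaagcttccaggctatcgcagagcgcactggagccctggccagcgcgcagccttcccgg
Kcnn3, chr2:177234090-177234389, + strand: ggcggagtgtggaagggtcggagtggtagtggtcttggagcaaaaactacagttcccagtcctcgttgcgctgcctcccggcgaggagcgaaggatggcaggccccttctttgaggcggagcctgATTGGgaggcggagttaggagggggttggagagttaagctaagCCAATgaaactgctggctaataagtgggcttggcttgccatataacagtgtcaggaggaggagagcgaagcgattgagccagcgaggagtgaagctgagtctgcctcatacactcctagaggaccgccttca
The window of Kcnj2 held GAGGAA at 2 places, CCAAT at 1 and GGGCGG at 1, and that of Kcnn3 held CCAAT at 2. Of all 33469 promoters of this length, 27.6% held GAGGAA, 7.33% TGANTCA, 37.5% CCAAT and 33.1% GGGCGG. Among the other members, Kcna3 held GAGGAA at 1 place and GGGCGG at 3, Kcnma1 held GGGCGG at 5, and Kcnn2 and Kcnk13 held none of the 4. CCAAT was the sequence present in both printed promoters, and it is also the most frequent of the 4 among all promoters. These are matches of letters only.

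Cocaine alone moved none of the 8 genes past the threshold, which 0.201% of all genes passed. At an unadjusted p under 0.05 there were 2 of the 8 genes and 12.6% of all genes. Kcnn4 differed by 0.70 between Cocaine and Control (95% interval 0.12 to 1.29, FDR 0.288) and Kcnma1 by -0.63 (FDR 0.450). Cocaine replicate 1 stood apart from the other 2 libraries of its group in both, with 1.32 CPM of Kcnn4 beside 3.44 and 4.26 CPM and 28.9 CPM of Kcnma1 beside 8.85 and 14.1 CPM. Without that library Kcnn4 differed by 1.12 (FDR 0.00940) and Kcnma1 by -1.07 (FDR 0.0355), and the share of all genes called was not counted. The summed neuronal markers spread in the same way in this group, from 1263 to 3752 CPM, as did the microglial markers, from 1621 to 5488 CPM, and the oligodendrocyte markers, from 880 to 25395 CPM against 249 to 1461 CPM in Control, and their part in the result was not tested. Adding cocaine to Tat moved 0 of the 8 genes and 0.0189% of all genes past the threshold, with 1 of the 8 and 8.16% of all at an unadjusted p under 0.05. The largest difference there was that of Kcnj2, -0.67 (SE 0.23, FDR 0.486), between overlapping groups.

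Adding cocaine to Tat and senicapoc lowered Kcnn1, the small-conductance channel, and no other of the 8 genes, against 0.183% of all genes called. It stood at 13.9, 12.9 and 13.1 CPM in Tat-Senicapoc libraries and at 7.18, 6.18 and 6.68 CPM in Tat-Cocaine-Senicapoc libraries, with a wide gap between the groups. The log2 fold change was -0.95 (SE 0.18, FDR 0.0105). Its FDR lay between 0.00252 and 0.0738 over 10 alternative settings, and the call was lost without Tat-Senicapoc replicate 1 (-0.91, FDR 0.0661) or Tat-Cocaine-Senicapoc replicate 2 (-0.89, FDR 0.103). Kcnma1 differed by -1.0 without passing the threshold (SE 0.33, FDR 0.168), from 38.7, 30.6 and 28.2 CPM to 16, 13.2 and 18.8 CPM. The summed neuronal markers ran from 3455 to 4230 CPM without and from 1877 to 2772 CPM with cocaine, and their part in the result was not tested.

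Without a compound, cocaine on top of Tat left Kcnn1 at 13.2, 11.7 and 9.66 CPM beside 12.6, 8.05 and 13.6 CPM with Tat, a difference of 0.04 (95% interval -0.32 to 0.40). The difference between the effects of cocaine with and without senicapoc was -0.98 (SE 0.25, 95% interval -1.49 to -0.47, FDR 0.195), in a comparison chosen after the fall had been seen, and 0.0315% of all genes were called in it, with 16.6% at an unadjusted p under 0.05. The same addition of cocaine with the other compounds was also examined after the fall had been seen, and Kcnn1 was not called there. The differences were -0.72 with amlexanox (FDR 1.00), -0.86 with tazemetostat (FDR 0.218) and -0.60 with 4OI (FDR 0.329). In each the libraries with cocaine lay below those without, but the share of all genes without overlap is not given for these comparisons. In these 3 comparisons 0% of all genes were called, and 1.62%, 8.59% and 9.27% of genes had an unadjusted p under 0.05. With tazemetostat, Tat-Tazemetostat replicate 2 decided the call, since without it the difference was -1.10 (FDR 0.00886).

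**Figure D4:**
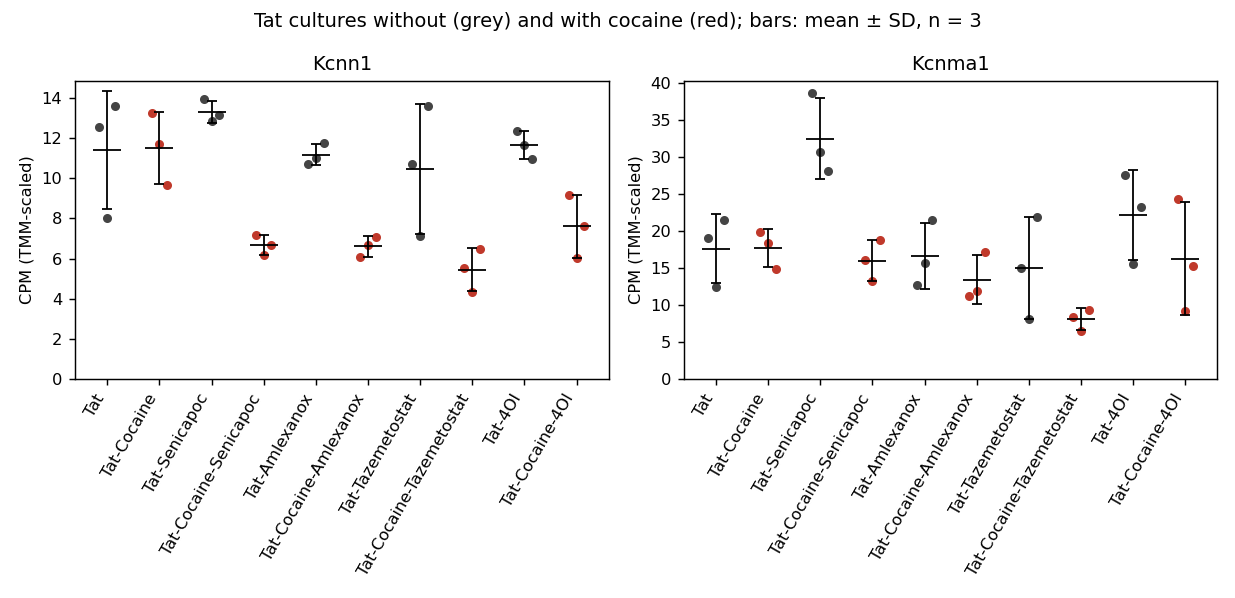
Kcnn1 and Kcnma1 in each library (points, TMM-scaled CPM on the vertical axis) of cultures with Tat, without cocaine in grey and with cocaine in red, without a compound and with each of the 4 compounds on the horizontal axis; bars give mean ± SD (n = 3). Kcnn1 falls from 13.3 to 6.68 CPM in the means with senicapoc and stays at 11.4 and 11.5 CPM without a compound. Its means are also lower with cocaine under amlexanox (11.2 to 6.61 CPM), tazemetostat (10.5 to 5.44 CPM) and 4OI (11.7 to 7.60 CPM).

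The other compounds were examined for the same 8 genes in 9 comparisons, which gave 13 calls. None fell in Amlexanox against Control (11.4% of all genes called), Tazemetostat against Control (0%) or Tat-Tazemetostat against Tat (0%), where 1, 0 and 0 of the 8 genes, and 26.1%, 3.62% and 5.36% of all genes, had an unadjusted p under 0.05. Kcnn4 was called lower with amlexanox on top of Tat, and with 4OI on top of Tat or of Tat and cocaine. It held 2.11, 2.57 and 2.09 CPM with Tat and amlexanox, a log2 fold change of -1.17 against Tat (SE 0.29, FDR 0.0434), where 0.837% of all genes were called. It held 2.89, 3.92 and 2.09 CPM with Tat and 4OI, a log2 fold change of -0.87 (SE 0.29, FDR 0.0366, 15.6% of all genes called), and 1.59, 2.22 and 1.39 CPM with Tat, cocaine and 4OI, a fold change of -1.21 against Tat-Cocaine (SE 0.29, FDR 0.00708, 7.36% of all genes called). None of these libraries overlapped the group it was compared with. With Tat, cocaine and amlexanox it held 3.00, 3.92 and 2.32 CPM, which overlaps Tat-Cocaine, and the difference of -0.53 was not called (SE 0.29, FDR 0.325). The first call was lost without any of 5 libraries, namely Tat replicate 2 or 3 or any Tat-Amlexanox replicate (-1.25 to -1.09, FDR 0.0553 to 0.286). The second was lost without Tat replicate 2 or 3 or Tat-4OI replicate 1 or 3 (-0.87 to -0.67, FDR 0.0805 to 0.182), and the last without Tat-Cocaine replicate 1 (-1.01, FDR 0.0606). Summed microglial markers ran from 2565 to 4641 CPM with Tat, from 2966 to 3622 CPM with Tat and amlexanox and from 1116 to 2477 CPM with Tat and 4OI, where 4 of 14 markers were called lower (median -1.03). In Tat-Cocaine-4OI against Tat-Cocaine 5 of 14 were called lower (median -0.97), with sums of 771 to 2299 CPM against 2085 to 3456 CPM. The part of these markers in the results was not tested. Tazemetostat with Tat left Kcnn4 at 4.64, 4.6 and 3.30 CPM, a difference of -0.41 from Tat (95% interval -1.0 to 0.17).

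Kcnj2 was also lower with 4OI, by -0.87 on top of Tat (SE 0.23, FDR 0.00854) and by -0.81 on top of Tat and cocaine (SE 0.23, FDR 0.0250). It held 8.13, 9.68 and 6.13 CPM with Tat and 4OI, below each Tat library, and 3.28, 9.10 and 4.06 CPM with Tat, cocaine and 4OI, which overlaps Tat-Cocaine. These are the comparisons in which 4 and 5 of 14 microglial markers were lower, and their part in the falls of Kcnj2 was not tested. Kcnn2, at 8.67, 7.1 and 8.56 CPM with Tat and 4OI against 6.44, 2.02 and 5.37 CPM with Tat, differed by 0.87 (FDR 0.0592) and was called without Tat replicate 1 (1.16, FDR 0.0284) or Tat replicate 3 (1.04, FDR 0.0411). The first call of Kcnj2 was lost without Tat replicate 2 (-0.72, FDR 0.0820) or Tat-4OI replicate 3 (-0.70, FDR 0.0759). The second was lost without Tat-Cocaine replicate 3 (-0.58, FDR 0.144) or Tat-Cocaine-4OI replicate 1 or 3 (-0.54 and -0.68, FDR 0.178 and 0.141). Kcnn3 moved the other way with 4OI alone, at 14.2, 14.8 and 16.4 CPM against 7.75, 9.61 and 9.26 CPM in Control, a log2 fold change of 0.74 (SE 0.20, FDR 0.0278, 3.15% of all genes called). That call was lost without any one of its 6 libraries, with FDR of 0.0558 to 0.160 and differences of 0.65 to 0.80.

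Kcnn1 was lower in Tat-Cocaine cultures with each of these compounds than in Tat-Cocaine cultures without. The log2 fold changes were -0.75 with amlexanox (SE 0.18, FDR 0.0371, 0.925% of all genes called), -1.02 with tazemetostat (SE 0.18, FDR 0.00166, 28.7% called) and -0.58 with 4OI (SE 0.18, FDR 0.0398). The libraries held 6.05, 6.69 and 7.07 CPM, 5.51, 4.33 and 6.48 CPM, and 9.17, 6.01 and 7.63 CPM in that order, against 13.2, 11.7 and 9.66 CPM without a compound. All of them lay below the Tat-Cocaine libraries, but the share of all genes without overlap is not given for these comparisons. These 3 comparisons, and that with senicapoc, use the same Tat-Cocaine libraries, so they are not independent of each other. Only the call with tazemetostat held without each library in turn. That with amlexanox was lost without any of Tat-Cocaine replicate 1 or 2 or the 3 Tat-Cocaine-Amlexanox replicates (-0.80 to -0.65, FDR 0.0580 to 0.259), and that with 4OI without Tat-Cocaine replicate 1 or 2 or Tat-Cocaine-4OI replicate 2 or 3 (-0.59 to -0.43, FDR 0.0960 to 0.208).

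Tat-Cocaine-Tazemetostat against Tat-Cocaine gave the most calls of these 9 comparisons, 5 of the 8 genes against 28.7% of all genes. Beside Kcnn1, the neuronal channels Kcnn2 and Kcnma1 were lower by -1.0 (SE 0.32, FDR 0.0229) and -1.09 (SE 0.33, FDR 0.0182), at 2.49, 2.55 and 4.09 CPM and at 8.41, 6.42 and 9.35 CPM. Kcnk13 was higher by 0.93 (7.34, 8.82 and 6.67 CPM, SE 0.23, FDR 0.00848) and Kcnj2 by 0.62 (14.4, 16.8 and 11.9 CPM, SE 0.23, FDR 0.0416), with Kcnj2 overlapping Tat-Cocaine. In the same comparison 7 of 9 neuronal markers were called lower and 7 of 14 microglial markers higher, with median log2 fold changes of -1.03 and 1.08, and their part in the result was not tested. Without Tat-Cocaine replicate 2 or Tat-Cocaine-Tazemetostat replicate 2 all 4 of these calls were lost (FDR 0.0638 to 0.223, Kcnk13 at 0.63 and 0.83). Those of Kcnn2, Kcnma1 and Kcnj2 were also lost without Tat-Cocaine replicate 1 (FDR 0.0905 to 0.140), and those of Kcnn2 and Kcnj2 without Tat-Cocaine-Tazemetostat replicate 1 (FDR 0.0738 and 0.0864).

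The calls of the members can be set beside all potassium channel genes whose symbol begins with Kcn, of which 92 were listed and 78 tested. Tat called 6 of the 78 higher and 9 lower, 19.2% in all against 21.3% of all genes, a share near the background. Their median log2 fold change was -0.42, against 0.01 over all genes. By kind, 2 of 9 calcium- or sodium-activated genes were higher (Kcnn4 and Kcnn3) and 1 lower (Kcnn2), 2 of 14 inward rectifiers were higher and 2 lower, 2 of 34 voltage-gated genes were higher and 4 lower, and 1 of 11 2-pore genes and 1 of 10 auxiliary or other genes were lower. Tat-Cocaine against Control called 5 higher and 7 lower (15.4%), Tat-Senicapoc against Senicapoc 7 higher and 2 lower (11.5%), and the 4 senicapoc comparisons 0. The medians of the 78 genes in the latter were 0.24 for Senicapoc against Control, 0.52 for Tat-Senicapoc against Tat, -0.01 for Tat-Cocaine-Senicapoc against Tat-Cocaine and 0.27 over the 3 backgrounds, where the median over all genes lay between -0.03 and 0.02.

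Beside the members, the largest rises with Tat were those of Kcnj8, the pore of an ATP-sensitive channel, from 0.207 to 1.91 CPM (1.66, FDR 0.0147), Kcns1, a silent subunit of voltage-gated channels, from 0.484 to 2.26 CPM (1.48, FDR 7.31e-05), and Kcnd1, a fast-inactivating voltage-gated channel, from 6.96 to 9.71 CPM (0.45, FDR 0.0121). The largest falls were those of the silent subunit Kcng4, from 3.85 to 0.384 CPM (-2.30, FDR 0.000244), the auxiliary subunit Kcne5, from 17.2 to 4.01 CPM (-1.95, FDR 0.0155), and Kcnj16, an inward rectifier subunit of astrocytes, from 2.84 to 0.420 CPM (-1.73, FDR 0.000542). The calls of Kcns1, Kcng4 and Kcnj16 held without each library in turn. That of Kcnj8 was lost without Tat replicate 1 or 2 (FDR up to 0.0909), that of Kcnd1 without Tat replicate 2 (FDR 0.104) and that of Kcne5 without Tat replicate 2 or 3 or Control replicate 3 (FDR up to 0.0862). In Tat-Cocaine against Control, Kcns1 (1.01) and Kcnd1 (0.51) were again the largest called rises beside the members, and Kcne5 (-2.22), Kcng4 (-2.12) and Kcnj16 (-1.66) the largest falls. The call of Kcns1 there was lost without Control replicate 3 or Tat-Cocaine replicate 3 (FDR up to 0.0785) and that of Kcne5 without Control replicate 3 or Tat-Cocaine replicate 2 (FDR up to 0.0641).

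Partners of these channels were examined as lists. Of 11 tested regulators of Kcnn4 and the small-conductance channels, calmodulins included, 1 was higher with Tat, the kinase subunit Csnk2b (0.22, from 72.5 to 84.6 CPM, FDR 0.00725), and its call was lost without Tat replicate 2 or Control replicate 1 (FDR up to 0.0659). Of 7 tested genes of store-operated calcium entry, Saraf, which slows that entry, was lower with Tat (-0.44, from 347 to 257 CPM, FDR 0.000204). With Tat and cocaine Saraf was lower too (-0.52, FDR 3.22e-05), and the pore gene Orai1 higher (0.28, FDR 0.0299), although the call of Orai1 was lost without any of Control replicate 1 or 2 or Tat-Cocaine replicate 2 or 3 (FDR up to 0.108). Of 10 genes of potassium efflux and the inflammasome, 7 were higher with Tat, 4 with Tat and cocaine and 8 in Tat-Senicapoc against Senicapoc, where 14.6%, 8.63% and 10.8% of all genes were higher, and none was called lower. In the same comparisons 3, 0 and 4 of the 14 microglial markers were higher and 1, 1 and 0 lower, with medians of 0.56, 0.19 and 0.99, and their part in these counts was not tested. The count of 7 with Tat fell to 5 without Tat replicate 2 or Control replicate 1. It was also 5 in the fit to 21 libraries without the other compounds and with the compared groups alone. The count of 4 with Tat and cocaine fell to 1 without Control replicate 1 and to 2 without Tat-Cocaine replicate 2 or 3, with Il1b called each time, and to 1 with the compared groups alone. That of 8 fell to 4 without Senicapoc replicate 1 or Tat-Senicapoc replicate 2 or 3, and to 5 without Senicapoc replicate 3. Il1b, the cytokine released by the inflammasome, had the largest rise, from 4.53 to 81.0 CPM with Tat (3.96, SE 0.50, FDR 4.18e-07) and from 3.90 to 45.1 CPM with Tat in the presence of senicapoc (3.36, SE 0.50, FDR 1.72e-05). Il18 (1.81, FDR 0.00143) and the protease gene Casp1 (1.78, FDR 0.00101) followed it in Tat against Control. Among the 16 genes of calcium-activated channels and their subunits, of which 11 were tested, Lrrc38, an auxiliary subunit of the large-conductance channel, was the called gene beside the members (1.69 with Tat, from 0.262 to 2.10 CPM, FDR 8.31e-05).

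Senicapoc called 0 of the 10 inflammasome genes in each of its 4 comparisons, with median log2 fold changes of -0.27 against Control, -0.31 with Tat and 0.36 with Tat and cocaine. The median over all genes lay between -0.03 and 0.02 in these comparisons. The store-operated list held 1 call over the 3 backgrounds, of the calcium sensor Stim1 (-0.15, from 85.4 to 76.9 CPM, SE 0.04, FDR 0.0425), which held in 6 of 10 alternative settings and without 5 of the 18 libraries left out in turn. It was lost with no filter (FDR 0.0509), with no trend (FDR 0.0548), in the fit to 21 libraries (FDR 0.126) and with the compared groups alone (FDR 0.0752). Its FDR reached 0.0948 without the other 13 libraries, which were Control replicates 2 and 3, Tat replicates 2 and 3, Tat-Cocaine replicates 1 and 2, Senicapoc replicates 1 and 3, Tat-Senicapoc replicates 1, 2 and 3, and Tat-Cocaine-Senicapoc replicates 1 and 3.

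Across the 48 libraries Kcnma1, Kcnn2 and Kcnn1 had their highest correlations with neuronal markers, and Kcnk13 and Kcnn4 with microglial ones. These are descriptions over libraries that share treatments, depth and culture makeup. On the log2 scale Pearson's r with the summed neuronal markers was 0.957 for Kcnma1, 0.859 for Kcnn2 and 0.807 for Kcnn1. With the summed microglial markers it was 0.780 for Kcnk13, 0.706 for Kcnn4 and 0.647 for Kcnj2, and for Kcnj2 it was 0.678 with the fibroblast and pericyte markers. With the summed astrocyte markers it was -0.722 for Kcnn4 and -0.638 for Kcnj2. For Kcnn4 it was also 0.512 with the fibroblast and pericyte markers and 0.506 with the red cell markers. Kcnn3, which rose with Tat as Kcnn4 and Kcnj2 did, had an r of 0.05 with the microglial markers and -0.27 with the neuronal ones. Its r was largest in size with the border macrophage (-0.502) and astrocyte markers (-0.438), and highest with the fibroblast and pericyte markers (0.396). Kcna3 reached 0.529 with the fibroblast and pericyte markers and 0.180 with the microglial ones. Between the members, r was 0.751 for Kcnn4 with Kcnj2, 0.430 for Kcnn4 with Kcnn3, 0.816 for Kcnn1 with Kcnma1 and -0.693 for Kcnn4 with Kcnn2.

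**Figure D5:**
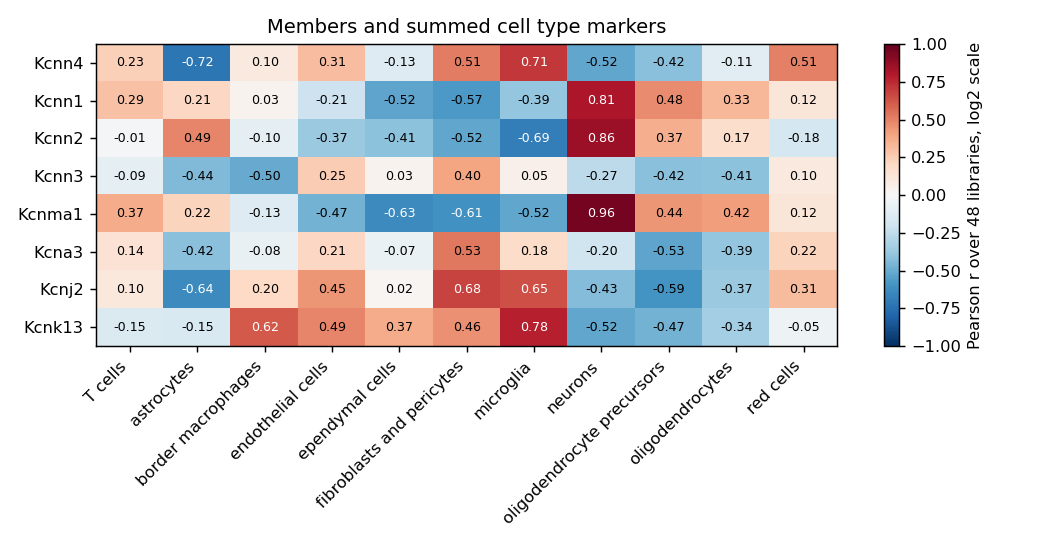
Pearson's r over 48 libraries between the 8 tested genes (rows) and the summed markers of 11 cell types (columns), both on the log2 scale, from blue (-1) to red (1). Kcnma1, Kcnn2 and Kcnn1 stand at 0.96, 0.86 and 0.81 with neuronal markers, and Kcnk13, Kcnn4 and Kcnj2 at 0.78, 0.71 and 0.65 with microglial markers.

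Genes most like each member were sought among 12961 tested genes with a mean of at least 1 CPM. Members and symbols starting with LOC, RGD, AABR, AC or ENSRNOG had been left out of these. Those most like Kcnn4 over the 48 libraries were Trpm2, a calcium-permeable channel opened by oxidative stress (r = 0.899), and Itgam, a microglial integrin (0.896). Ly86 (0.895), the costimulatory receptor Cd40 (0.893) and the coagulation factor F10 (0.889) followed. Trpm2 held 22.2 CPM in Control and 63.5 CPM with Tat, and Cd40 1.77 and 7.50 CPM. For Kcnj2 they were Pstpip1, Clec4a2 and Ptger2 (0.935, 0.933 and 0.931), and for Kcnk13 Gna15, Rab3il1 and Inpp5d (0.896, 0.888 and 0.884). For Kcnma1 they were Cnksr2, Nell2 and Add2 (0.969, 0.965 and 0.964), for Kcnn2 the dendritic protein gene Map2, Dgkb and LRRTM1 (0.930, 0.926 and 0.916), and for Kcnn1 Rps6ka6, Tmem266 and Nectin1 (0.898, 0.891 and 0.884). For Kcnn3 they were Slco3a1, Vat1l and Ripor1 (0.901, 0.885 and 0.882), and for Kcna3 Herc1 and Dpp9 (0.790 and 0.774). Map2 was itself 1 of the neuronal markers summed above, and Itgam 1 of the microglial ones. By rank correlation 9 of these 26 genes kept a place among the leading ones, and over the 16 group means also 9.

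Kcnk6, the other 2-pore channel, was listed at 0 in 46 of 48 libraries. The exceptions were 4OI replicate 3 at 0.0417 CPM, the worth of 1 read, and Tazemetostat replicate 1 at 0.0224 CPM. No level or comparison can be drawn for it here.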

How the data were processed

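Total RNA of 48 rat culture libraries was sequenced. The submitters' processing notes name Trim Galore 0.4.5, STAR 2.7.2, SAMtools 1.5 and featureCounts of Subread 1.5.3. The genome build differs between the sources used here (Rnor_6.0 and mRatBN7.2), so no coordinates of the counted genes are given. The deposited values are a signal, CPM that the authors scaled by TMM in edgeR. In each library 85.0% to 87.3% of the nonzero entries equalled a whole number of reads (tolerance 0.02 read) and the rest were fractions, so no count test was run. The deposited columns of the authors' own comparisons (log fold changes, P values, FDR) and their group means were not used.

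The filter, 0.5 CPM or more in 3 or more libraries, left 15890 of 30211 genes, tested on log2(CPM + 0.5), a scale that understates the change of low genes. The fit was limma 3.58.1 in R 4.3.3 (lmFit, eBayes with trend), with 16 group means over 48 libraries and 32 residual degrees of freedom. Genes with a Benjamini-Hochberg FDR under 0.05 were called, over all tested genes in each of 25 comparisons. Tests were two-sided, and errors are SD or SE as stated. The share of all genes whose libraries did not overlap is given for Tat-Senicapoc against Tat and Tat-Cocaine-Senicapoc against Tat-Cocaine only. In other comparisons a lack of overlap describes the named genes alone. The code of the fit was checked on simulated data, with libraries drawn independently and the same spread setting for every gene. That check does not cover shifts of culture makeup shared by many genes.

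The members and gene lists were chosen with earlier results of these data known. Named beside the members were the 3 called Kcn genes with the largest rise and fall, the genes most correlated with each member (5 for Kcnn4, 3 for the others) and at most 3 called genes a list. Of the genes correlated with Kcna3, 1 is not reported here. The labels name no pairing of samples by replicate number, and the main fit holds none. In 8 of 21 comparisons of 2 groups every correlation of same-numbered deviations from the group means was over 0.1. These were Senicapoc, Tazemetostat, 4OI and Tat-Cocaine against Control, Tat-Amlexanox against Tat, and cocaine added to Tat with amlexanox, tazemetostat or 4OI. Whether same-numbered libraries were paired was not tested. Alternatives were other pseudocounts, filters, scalings and fits, a replicate block and leaving out each library. No library was left out of the main results.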

Additional observations from a re-analysis of the deposited data

How the results depend on the processing

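The counts of called members stayed within 1.5 times under pseudocounts of 0.1 and 1 CPM, a minimum of 2 CPM, no filter, no trend, median ratio rescaling and quantile normalization, but single calls were lost. Kcnn4 lost its call in Tat-Amlexanox against Tat at a pseudocount of 0.1 CPM (FDR 0.0624) and with no filter (0.0599), and in Tat-4OI against Tat in those settings (0.0545 and 0.0589) and with quantile normalization (0.0778). With no filter, Kcnn2 in Tat against Control (0.0589), Kcnn1 in Tat-Cocaine-4OI against Tat-Cocaine (0.0574) and Kcnj2 in Tat-Cocaine-Tazemetostat against Tat-Cocaine (0.0622) were lost, and with quantile normalization Kcnn1 in Tat-Cocaine-4OI (0.0881) and Tat-Cocaine-Amlexanox (0.0508) against Tat-Cocaine. Both rescalings moved the median of all genes by less than 0.1 on the log2 scale. With a replicate block, the members called went from 0 to 1 in Tat-Senicapoc against Tat (Kcnn2, 0.90, FDR 0.03) and from 0 to 1 in Tat-Cocaine-Senicapoc against Tat-Cocaine (Kcnn1, -0.74, FDR 0.0476), and it also gave calls of Kcnn2 in Tat-4OI against Tat (0.87, FDR 0.00789), Kcnn3 in Tat-Cocaine-4OI against Tat-Cocaine (0.54, FDR 0.0308) and Kcnn1 in the difference of the cocaine effects with and without senicapoc (-0.98, FDR 0.0481). In the comparisons of 2 groups among these 5, not every correlation of same-numbered deviations was over 0.1. The difference of the cocaine effects was not examined in that way. With the block 0 member calls were lost. Kcnn2 in Tat-4OI against Tat was also called with quantile normalization (0.99, FDR 0.0341). Fitting the compared groups alone left 1 call in Tat-Cocaine against Control, 0 in Tat-Cocaine-Senicapoc against Tat-Senicapoc and 4 of the 13 with the other compounds (lost at FDR 0.0627 to 0.413), with fewer libraries behind the spread. The fit to 21 libraries left 0 calls in Tat-Cocaine-Senicapoc against Tat-Senicapoc. The cause of the other changes was not tested.

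Leaving out 1 library at a time, the calls ran from 0 to 3 in Tat-Cocaine-Senicapoc against Tat-Cocaine, from 0 to 2 in Cocaine against Control, from 0 to 1 in Tat-Cocaine-Senicapoc against Tat-Senicapoc, from 7 to 14 with the other compounds (7 without Tat-Cocaine replicate 1 or 2) and from 0 to 1 for cocaine added to Tat and another compound. Calls over all genes were not counted in these fits. Values near 0 changed sign. Kcnk13 in Senicapoc against Control was 0.0407 with quantile normalization, and Kcna3 in Tat-Senicapoc against Tat was 0.00532 with median ratio rescaling and 0.00242 with quantile normalization. Leaving out libraries gave ranges of -0.0314 to 0.116 for Kcnn3 and -0.12 to 0.15 for Kcnk13 in Senicapoc against Control, of -0.20 to 0.11 for Kcna3, -0.18 to 0.15 for Kcnj2 and -0.17 to 0.40 for Kcnk13 in Tat-Senicapoc against Tat, and of -0.0459 to 0.361 for Kcnn4 and -0.21 to 0.18 for Kcnn2 in Tat-Cocaine-Senicapoc against Tat-Cocaine.

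Over all genes, 65 calls in Tat-Senicapoc against Tat became 23 with median ratio rescaling and 31 with quantile normalization, 7 in Tat-Cocaine-Senicapoc against Tat-Cocaine became 13 and 32 in Cocaine against Control became 21 with quantile normalization. Depth limits Kcnn4, at 17 to 144 reads a library. Count-based alternatives were not run, since the values are not whole reads.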
